A study of Drosophila melanogaster with 6 samples.

Results

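The superoxide dismutases, the catalase and the peroxidases analysed here are 8 genes, Sod1, Sod2, Sod3, Cat, Prx3, Prx5, PHGPx and Irc, chosen by their FlyBase symbols out of 17477 gene identifiers in the acute exercise count table. Of the 8 genes, 7 had enough counts for a test and Prx5 was listed at 0 in every library. The exercised group held 3 libraries from OK6-Gal4bc/+; UAS-CsChrimbc/+ larvae, in which the motor neurons carry a red-light-gated cation channel, and the control group held 3 libraries from w1118 larvae. All larvae were of mixed sex and in the third instar (L3) and, under the study's acute exercise protocol, had been kept overnight on food with all-trans retinal. Exercised larvae received 2 h of pulsed red light before the body wall muscles and cuticle were dissected, and in the other assays of this protocol the control larvae received the same light, which is not stated separately for the sequenced controls. The exercised larvae also carry the transgenes that the controls lack, so genotype and muscle contraction cannot be told apart in any comparison below, although each transgenic line had been backcrossed to the w1118 strain. OK6-Gal4 is active in motor neurons but also in some CCAP neurons, which are neuroendocrine cells, and is not a muscle driver.

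Superoxide leaks from the respiratory chain and is made on purpose by NADPH oxidases. Superoxide dismutases turn it into hydrogen peroxide, and catalase, peroxiredoxins and glutathione peroxidase-like enzymes turn the peroxide into water. The work is divided by compartment. Sod1 is the copper and zinc enzyme of the cytosol, Sod2 the manganese enzyme of the mitochondrial matrix, Sod3 the extracellular copper and zinc enzyme and Cat the catalase of peroxisomes. Prx3 is the peroxiredoxin of mitochondria, Prx5 a peroxiredoxin found in several compartments, and PHGPx a glutathione peroxidase homolog that in flies draws electrons from thioredoxin. Irc, the immune-regulated catalase, is a secreted heme peroxidase family protein known for removing peroxide in the infected adult gut. Contracting muscle is a known source of superoxide and peroxide in mammals.

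The libraries held 19625425 to 22063283 counts in exercised larvae and 20485254 to 23953341 counts in control larvae. Summed muscle markers (7 of 8 listed were in the table, among them Mhc and Act57B) were at 125500 to 137800 CPM (counts scaled to library size) in exercised larvae and 124800 to 139900 CPM in control larvae, and none passed the test. Summed fat body markers (8 of 8 measured, 2 of them higher, Fbp1 and Lsp1gamma) came to 6764, 6133 and 5065 CPM in the exercised libraries. In control replicates 1 to 3 they came to 556.4, 420.3 and 3641 CPM, so control replicate 3 stood apart from its group. Lsp1gamma was at 2408, 2091 and 1654 CPM in exercised larvae but at 2.21, 2.54 and 1.78 CPM in control replicates 1 to 3. Lsp1beta was at 2417, 2103 and 1759 CPM in exercised larvae and at 267, 206 and 1902 CPM in control replicates 1 to 3. Midgut markers were nearly absent, at no more than 0.655 CPM in sum, with 3 of 7 (Jon99Ci, alphaTry and LManVI) at 0 throughout. In bulk samples such as these, fewer cells of a type and less RNA per cell cannot be told apart.

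Of the 7 genes tested, 1 was higher in exercised larvae (Prx3), 1 was lower (Irc) and 5 did not pass (Sod1, Sod2, Sod3, Cat and PHGPx). Calls rest on edgeR's quasi-likelihood test over 9127 genes at a Benjamini-Hochberg adjusted p under 0.05. Over all these genes 18.8% were called, 10.3% higher and 8.52% lower, and nothing is read from 2 calls among 7 genes. Their median log2 fold change was 0.06, against -0.01 over all tested genes. The ranges of the groups did not overlap for 3 of the 7 genes (Prx3, Irc and Sod2), where 39.2% of all tested genes had ranges that did not overlap, 19.8% with the exercised and 19.4% with the control libraries higher.

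**Figure D1:**
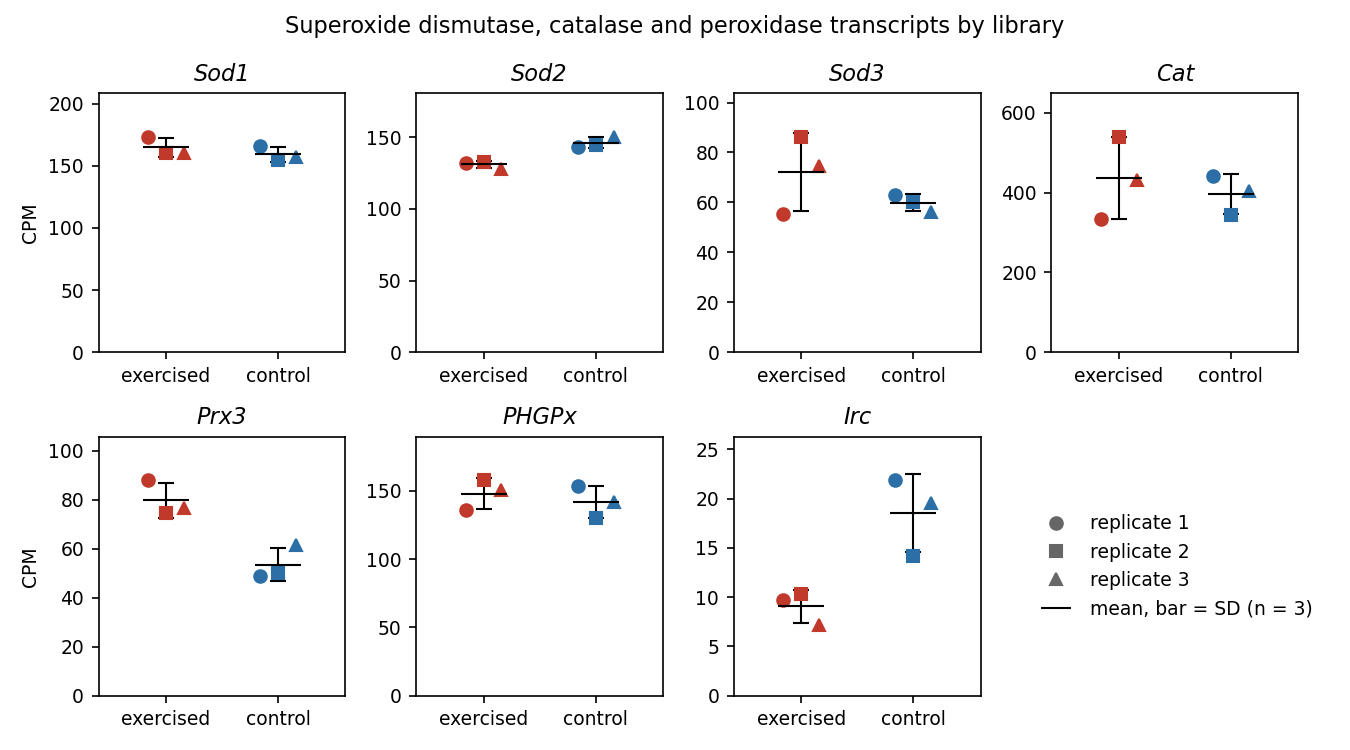
CPM (y axis from 0, one scale per gene) of the 7 enzymes with counts, in the 3 exercised (red) and 3 control (blue) libraries, with the mean and SD. The groups are separate for Prx3 (74.7 to 88.1 CPM in exercised, 49.0 to 61.3 CPM in control larvae), Irc and Sod2, and overlap for the other 4 genes.

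Among the dismutases, the cytosolic gene Sod1 (FBgn0003462, chromosome 3L from 11112281 to 11113740 of release 6, 735 exonic bases) had nearly the same level in both groups. Its libraries read 173, 161 and 160.3 CPM in exercised larvae and 166, 155 and 157 CPM in control larvae. The ranges overlapped, and the log2 fold change of 0.05 (standard error, SE, 0.07, adjusted p = 0.693 from edgeR) had a 95% interval of -0.12 to 0.22.

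Sod2 (FBgn0010213, chromosome 2R from 16772785 to 16773915, 1015 exonic bases) was measured with little spread. Its libraries read 132, 133 and 128 CPM in exercised larvae and 143, 145 and 151 CPM in control larvae, with a coefficient of variation of 1.89% among the exercised and 2.65% among the control libraries. The highest exercised library lay below the lowest control library. The log2 fold change was -0.16 (SE 0.07, 95% interval -0.32 to 0.00) and missed the threshold (edgeR adjusted p = 0.156). Scaling by upper-quartile factors instead of TMM gave a log2 fold change of -0.21 for Sod2 (edgeR adjusted p = 0.0678).

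Sod3 (FBgn0033631, chromosome 2R from 11380347 to 11384114, 2018 exonic bases in 5 transcripts) was the most variable dismutase among exercised larvae. Exercised replicates 1 to 3 had 55.3, 86.3 and 74.8 CPM, and control replicates 1 to 3 had 62.9, 60.3 and 56.1 CPM. Exercised replicates 2 and 3 lay above every control library, and exercised replicate 1 lay below every one. The log2 fold change of 0.27 (SE 0.15, 95% interval -0.09 to 0.63) did not pass (adjusted p = 0.273 from edgeR). This outcome rests on 1 library, since without exercised replicate 1 the log2 fold change was 0.43 and the adjusted p was 0.0276, and without exercised replicate 2 they were 0.12 and 0.581. Counts were given per gene, so the transcripts of Sod3 were not separated.

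Cat (FBgn0000261, chromosome 3L from 18822604 to 18828188, 1993 exonic bases) had the most counts of the 8 genes, 6999 to 10448 per exercised library and 7449 to 10803 per control library. These were 335, 540.2 and 432 CPM in exercised larvae and 442, 344 and 405 CPM in control larvae. The lowest and the highest of the 6 libraries were thus both exercised ones, with a coefficient of variation of 23.6% among the exercised and 12.6% among the control libraries. The groups did not differ beyond this spread (log2 fold change 0.13, SE 0.18, 95% interval -0.29 to 0.56, adjusted p = 0.661 from edgeR). In Cat, Sod3 and PHGPx alike, exercised replicate 1 was the lowest and exercised replicate 2 the highest of the exercised libraries.

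The level of Cat relative to Sod3, per exonic base, varied less than either gene did among exercised larvae. The ratio was 6.13, 6.33 and 5.85 in exercised larvae and 7.12, 5.77 and 7.31 in control larvae. Among control larvae the ratio varied more than Sod3 did (coefficient of variation of Sod3 5.71%), so the pattern was limited to exercised larvae. By the root mean square difference of their log2 profiles over 6 libraries, each centred on its own mean, Cat and Sod3 were 0.13 apart, where pairs of these genes ranged from 0.11 (Sod1 and PHGPx) to 0.84 (Prx3 and Irc). These distances describe 6 libraries and carry no test.

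Prx3 (FBgn0038519, chromosome 3R from 17545222 to 17546531, 1017 exonic bases) rose in exercised larvae. Transcripts of this mitochondrial peroxiredoxin numbered 88.1, 74.7 and 76.7 CPM in exercised replicates 1 to 3, against 49.0, 50.2 and 61.3 CPM in the control ones. Every exercised library was above every control library, with control replicate 3 nearest to the exercised ones. The means were 79.8 ± 7.20 CPM in exercised and 53.5 ± 6.81 CPM in control larvae (SD, n = 3 each), a fold of 1.49 with a 95% interval of 1.24 to 1.79. On the log2 scale the change was 0.58 (SE 0.11; edgeR adjusted p = 0.0117). It was 0.70 without control replicate 3, the control library rich in fat body transcripts (adjusted p = 0.00868), and the call was lost by a small margin without control replicate 2 (log2 fold change 0.54, adjusted p = 0.0504). The summed fat body markers, given above, were also higher in exercised larvae and in control replicate 3. Part of the exercised sum was Lsp1gamma, which was nearly absent from every control library. Lsp1beta was at 1902 CPM in control replicate 3, within its exercised range. Summed trachea markers (5 of 6 listed were in the table, with serp and pio higher) came to 5347, 4048 and 4873 CPM in exercised larvae. In control larvae they came to 4041, 3586 and 3763 CPM. The markers did not move alike. Log2 fold changes were 0.57 for serp, 0.36 for verm and 0.35 for pio, against -0.25 for Gasp and -0.17 for trh. The changes of verm, Gasp and trh did not pass. The part of fat body and trachea transcripts in the level of Prx3 was not tested.

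Sod2, the other mitochondrial enzyme gene, was set against Prx3 within each library. Per exonic base, the ratio of Prx3 to Sod2 was 0.665, 0.561 and 0.597 in exercised larvae and 0.342, 0.346 and 0.407 in control larvae. These ranges could not overlap, since every exercised library was above every control library for Prx3 and below every one for Sod2. An exact two-sided permutation test of this ratio gave p = 0.1, the smallest that 3 libraries against 3 can give, and adjusted p = 0.2 over 6 ratios chosen with the values known. Its outcome was fixed by the ranges of the separate genes and adds nothing to them. Of 13 enzymes of the tricarboxylic acid cycle, which also work in mitochondria, none passed (edgeR; 1 at an unadjusted p under 0.05; none by limma-voom and 1, SdhC, by DESeq2). Their median log2 fold change was 0.11, against -0.01 over all tested genes. With 18.8% of all tested genes called, nothing is read from the lack of calls among 13 genes. Mdh2, the most expressed of them per exonic base, was at 881, 857 and 868 CPM in exercised larvae and at 736, 747 and 891.5 CPM in control larvae, and missed the threshold (edgeR adjusted p = 0.344, and 0.0470 without control replicate 3). The 3 tested genes with the profiles nearest to Prx3 over the 6 libraries were Rrp40, mora and CCT5, at distances of 0.03, 0.04 and 0.04. The median for all tested genes was 0.38. Genes selected as the nearest lie far below it, also for Sod1, which did not pass, so nothing is read from the gap.

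PHGPx (FBgn0035438, named Gtpx in the annotation used here, chromosome 3L from 3326265 to 3328626, 1359 exonic bases) was at 136, 158 and 150.5 CPM in exercised larvae and at 154, 130.1 and 142 CPM in control larvae. The ranges overlapped almost fully, with a log2 fold change of 0.06 (SE 0.09, 95% interval -0.16 to 0.28, adjusted p = 0.704 from edgeR).

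Irc (FBgn0038465, chromosome 3R from 17002875 to 17007208, 2390 exonic bases) fell in exercised larvae. It had 203, 200 and 154 counts in exercised replicates 1 to 3 and 534, 307 and 428 counts in control replicates 1 to 3, or 9.70, 10.3 and 7.16 CPM in exercised and 21.9, 14.2 and 19.6 CPM in control larvae. All exercised libraries lay below all control libraries. The means were 9.07 ± 1.68 CPM in exercised and 18.5 ± 3.95 CPM in control larvae (SD, n = 3 each), so that exercised larvae had 0.489 times the control level (95% interval 0.354 to 0.674). The log2 fold change was -1.03 (SE 0.20, adjusted p = 0.0117 from edgeR), and Irc passed with each of the 6 libraries left out in turn (adjusted p between 0.0105 and 0.0444).

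Transcripts of other tissues moved with Irc in part. Summed Malpighian tubule markers (3 of 4 listed, of which 1, Best2, was lower) were at 31.9, 41.4 and 30.2 CPM in exercised larvae. In control larvae they were at 68.2, 57.0 and 54.5 CPM. Most of this sum was Best2, at 31.0, 37.0 and 29.5 CPM in exercised and 53.7, 46.1 and 52.35 CPM in control larvae. Their defining gene Uro was at 0, 0 and 0.0930 CPM in exercised larvae and at 2.83, 2.12 and 0.0457 CPM in control larvae. Irk3 was at 0.908, 4.395 and 0.604 CPM in exercised and 11.6, 8.77 and 2.15 CPM in control larvae. In control replicate 3, Uro and Irk3 thus lay within their exercised ranges, while Irc was at 19.6 CPM. Summed hemocyte markers (10 of 10 listed, of which 3 were higher and none was lower) were at 1398, 1843 and 1385 CPM in exercised larvae. In control larvae they were at 859, 1407 and 1477 CPM. The higher ones were NimC1, PPO1 and lz. Log2 fold changes of Hml, eater, He, Pxn and Sr-CI were -0.51 to -0.14, and those of crq and PPO2 were 0.14 and 0.56. None of these passed. Summed epidermis markers (5 of 5 listed, of which 1, the cuticle gene Lcp3, was lower) came to 30710, 30910 and 35160 CPM in exercised larvae. In control larvae they came to 49370, 37000 and 38460 CPM. Lcp3 alone was at 11020, 10450 and 11310 CPM in exercised and 23880, 19500 and 20840 CPM in control larvae. Its log2 fold change was -0.97 and that of Lcp1 -0.23, against 0.34 for Lcp2, 0.38 for sha and 2.63 for Ddc. Of these only Lcp3 passed. Midgut markers were at or near 0, as given above. The part of tubule, epidermis and blood cell transcripts in the fall of Irc was not tested. Genes with the nearest profiles were CG5612, CG7695 and Alk, at distances of 0.09, 0.13 and 0.16 (median of all tested genes 0.59). As for Prx3, nothing is read from the gap to the median.

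Prx5 (FBgn0038570, chromosome 3R from 18165442 to 18167273) had 0 counts in all 6 libraries. In the annotation used here it shares all of its 1449 exonic bases with CG7215 (FBgn0038571), on the same strand, and CG7215 was at 0 as well. Zeros of this kind were common in the table. Of 291 protein-coding genes whose exons lie wholly within those of another gene on the same strand, 280 (96.2%) were at 0 in every library, and of 70 that lie within a gene of the opposite strand 65 (92.9%) were, against 15.5% of 9041 protein-coding genes that share no exonic base. No level of Prx5, and no upper limit, is therefore given. The other 7 genes share no exonic base with any annotated gene.

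Compared per exonic base, which sets genes of different length on 1 scale, the enzymes differed widely in level. Sod1 (mean 224 CPM per kb in exercised and 217 CPM per kb in control larvae) and Cat (219 and 199 CPM per kb) were highest, and their libraries overlapped within both groups. Sod2 followed at 129 CPM per kb in exercised and 144 CPM per kb in control larvae, and PHGPx at 109 and 104 CPM per kb. Then came Prx3 at 78.5 CPM per kb in exercised and 52.6 CPM per kb in control larvae, Sod3 at 35.7 and 29.6 CPM per kb, and Irc at 3.79 and 7.75 CPM per kb. The order was the same in both groups. Apart from Sod1 and Cat, no neighbours in this order overlapped within a group. Sod1 stood above 96.5% of the tested genes in exercised and 96.7% in control larvae, while Irc stood above 34.5% and 53.6%.

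**Figure D2:**
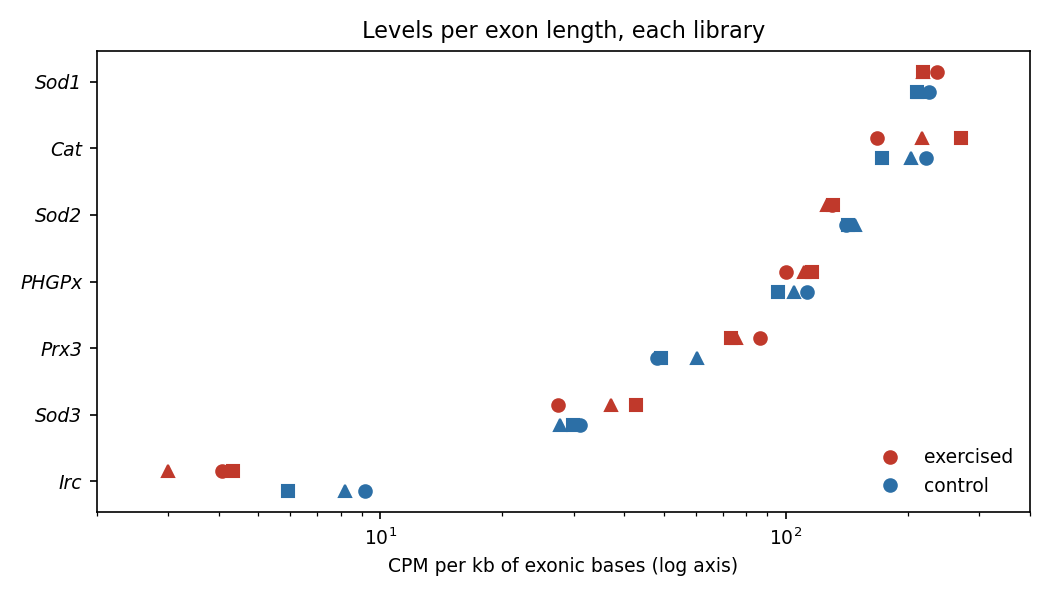
Level of each enzyme per kb of exonic bases (x axis, CPM per kb, log scale) in each exercised (red) and control (blue) library, ordered by the exercised mean. Circles, squares and triangles are replicates 1, 2 and 3. The order runs from Sod1 (mean 224 CPM per kb in exercised larvae) to Irc (3.79), and the groups stand apart for Prx3, Sod2 and Irc.

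As a share of the summed level of the 7 genes per exonic base, Prx3 took 11.5, 8.57 and 9.58% in exercised larvae, against 6.10, 6.98 and 7.87% in control larvae. Cat took 22.3, 31.6 and 27.5% in exercised larvae and 28.1, 24.4 and 26.5% in control larvae. Irc contributed 0.380 to 0.540% in exercised and 0.839 to 1.16% in control larvae. The share of Prx3 was thus higher in each exercised library than in any control library, and that of Irc lower, while the shares of Cat overlapped.

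**Figure D3:**
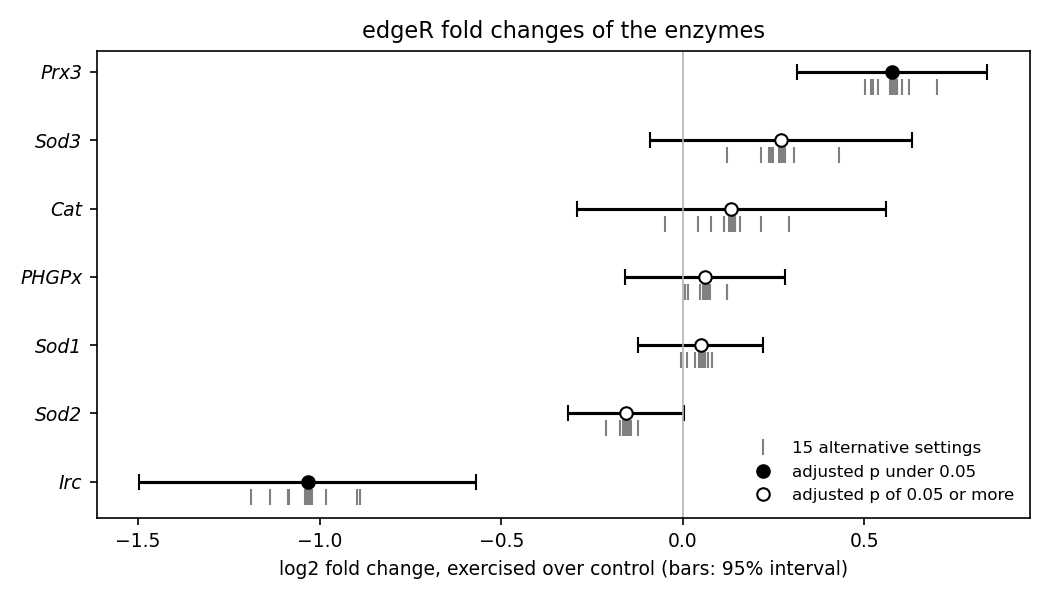
Log2 fold change of each enzyme, exercised over control (x axis), from edgeR with its 95% interval, and below it as grey ticks the values under 15 alternative settings. Prx3 (0.58) and Irc (-1.03) are filled since they passed the test, and the intervals of the other 5 genes reach 0.

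**Figure D4:**
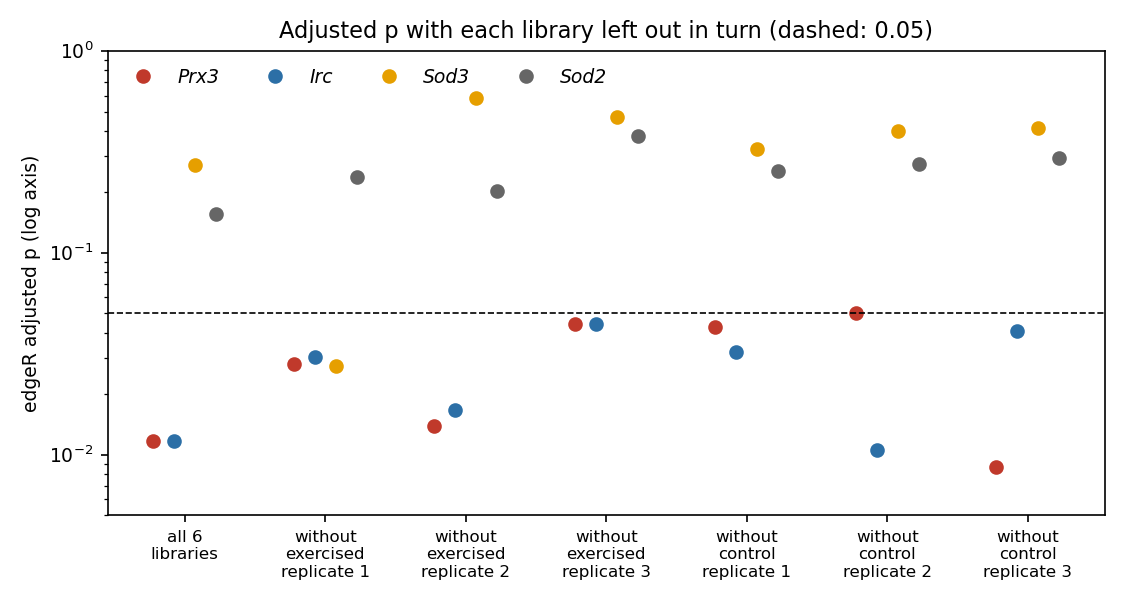
Adjusted p of edgeR (y axis, log scale, dashed line at 0.05) for Prx3, Irc, Sod3 and Sod2 with all 6 libraries and with each library left out. Irc stays below the line throughout, Prx3 lies at 0.0504 without control replicate 2, and Sod3 reaches 0.0276 without exercised replicate 1.

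The genes that supply and recharge these enzymes were examined as lists. Over all tested genes 18.8% were called, 10.3% higher and 8.52% lower, and nothing is read from the counts of calls in these lists. Of 6 relatives of the dismutases and copper delivery genes, 1 was higher, 1 was lower and 4 did not pass, with a median log2 fold change of -0.07. The higher one was Rsod, a gene related by sequence to the copper and zinc dismutases, at 43.9, 47.2 and 42.1 CPM in exercised and 37.3, 33.6 and 31.8 CPM in control larvae (log2 fold change 0.38, adjusted p = 0.0265 from edgeR). Rsod was past the threshold only without control replicate 1 when libraries were left out in turn (adjusted p up to 0.0897). Ctr1A, a copper importer and the most expressed of the list per exonic base in exercised larvae, was at 61.5, 60.3 and 59.2 CPM in exercised and 62.0, 61.7 and 72.3 CPM in control larvae (edgeR adjusted p = 0.394). The lower one was Atox1, which carries copper to the secretory pathway, at 21.0, 21.5 and 18.5 CPM in exercised and 27.0, 26.7 and 29.3 CPM in control larvae (log2 fold change -0.44, adjusted p = 0.0158, and 0.0769 without exercised replicate 3).

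Peroxiredoxins other than Prx3 did not pass the test. Of 7 listed, 6 were tested and Prx1 was at 0 throughout (edgeR 0 calls, with 1 at an unadjusted p under 0.05). Prx6c was called by limma-voom, by DESeq2 and by edgeR with the replicate number as a block. Prx2, the cytosolic peroxiredoxin also named Jafrac1 and the most expressed of them per exonic base, was at 274, 229 and 256 CPM in exercised larvae and at 221, 225 and 263 CPM in control larvae, a log2 difference of 0.10 (edgeR adjusted p = 0.561). Prx6c was at 13.6, 10.6 and 9.95 CPM in exercised and 7.86, 2.72 and 4.89 CPM in control larvae, a log2 fold change of 1.14 that did not pass (adjusted p = 0.0777 from edgeR, 0.0151 without control replicate 1). Prx6b, Prx6c and CG12896 are near-identical copies, and reads may have been split between them, so their values are uncertain.

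Flies lack glutathione reductase, and the thioredoxin reductase Trxr1 recharges thioredoxin and, through it, glutathione. Trxr1 also rose. Its libraries read 339.5, 279 and 331.5 CPM in exercised and 199.7, 192 and 231 CPM in control larvae, a log2 change of 0.61 (SE 0.11; edgeR adjusted p = 0.00830), and passed with each library left out (adjusted p up to 0.0475). Of its 3147 exonic bases 435 are shared with a gene of the opposite strand, and without strand such reads cannot be assigned. Its substrate gene Trx2, the most expressed of this list per exonic base, was at 340.3, 327 and 330.1 CPM in exercised larvae and at 291, 281.5 and 302 CPM in control larvae. These ranges did not overlap, but the log2 fold change of 0.19 did not pass (adjusted p = 0.100). Sesn, the sestrin gene, whose product restrains TORC1 under stress, fell to 29.8, 31.9 and 29.3 CPM in exercised larvae, against 65.8, 47.5 and 92.0 CPM in control larvae (log2 fold change -1.18, adjusted p = 0.0163, and up to 0.0729 without any 1 of the exercised replicates). It shares 65.1% of its exonic bases with another gene of the same strand. MsrA, which repairs oxidized methionine, was chosen after its values were seen and is named for its spread, 34.6, 111 and 75.2 CPM in exercised and 290.9, 285 and 101 CPM in control larvae (log2 fold change -1.62, adjusted p = 0.138 from edgeR). Of 8 tested genes of the thioredoxin, glutaredoxin and repair list, 1 was higher, 1 was lower and 6 did not pass (median log2 fold change -0.13), and Trxr2 was listed at 0.

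Other genes of the protein family of Irc were counted as well. Of 5 tested genes among the other heme peroxidases and peroxidase relatives, 2 rose, none fell and 3 missed the threshold, with a median log2 fold change of -0.08. With 10.3% of all tested genes called higher, nothing is read from 2 calls among 5 genes. CG10211, predicted to encode a heme peroxidase, rose to 863, 1151 and 1055 CPM in exercised larvae, against 473, 336 and 334 CPM in control larvae (log2 fold change 1.42, SE 0.17, adjusted p = 0.00202 from edgeR, and up to 0.0121 with any library left out). It was the most expressed of this list per exonic base, at 197 CPM per kb in exercised and 73.5 CPM per kb in control larvae. CG42331, of the same family, was at 2.63, 3.10 and 3.49 CPM in exercised and 1.47, 1.94 and 1.64 CPM in control larvae (log2 fold change 0.87, adjusted p = 0.0325, and up to 0.127 when libraries were left out). When libraries were left out in turn, CG42331 passed only without exercised replicate 1. A further gene of the list, cysu, chosen after its values were seen, was at 1.86, 2.07 and 3.39 CPM in exercised and 5.53, 4.57 and 3.75 CPM in control larvae, without overlap. Its log2 fold change of -0.92 missed the threshold narrowly (edgeR adjusted p = 0.0540), and it was called lower by DESeq2, with upper-quartile factors, without the low-count filter and with the stricter one (adjusted p down to 0.0328), as well as without exercised replicate 3 (0.0333).

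Of 7 listed sources of superoxide and peroxide, the dual oxidase gene Duox was not found in the count table under the identifier used here. The 6 others were tested, of which 1 was higher, 1 was lower and 4 did not pass (median log2 fold change -0.04). Nox, an NADPH oxidase, fell to 27.9, 28.9 and 29.9 CPM in exercised larvae, against 48.7, 45.4 and 39.3 CPM in control larvae (log2 fold change -0.62, SE 0.10, adjusted p = 0.00497 from edgeR, and up to 0.0272 with any library left out). mol, which encodes the factor that brings the dual oxidase Duox to the membrane, was at 56.3, 30.6 and 48.6 CPM in exercised and 25.1, 25.2 and 23.7 CPM in control larvae (log2 fold change 0.87, adjusted p = 0.0312, and up to 0.109 when libraries were left out). When libraries were left out in turn, mol passed only without exercised replicate 2.

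NADPH, the electron source of Trxr1, is made by few enzymes. Of the 5 tested, 3 rose, none fell and Zw and Idh missed the threshold, with a median log2 fold change of 0.36. Over all tested genes 10.3% were called higher, and nothing is read from 3 calls among 5 genes. Men, the cytosolic malic enzyme and the most expressed of them per exonic base, was at 835, 592 and 689.5 CPM in exercised and 450.5, 414 and 437.5 CPM in control larvae (log2 fold change 0.70, SE 0.12, adjusted p = 0.00814 from edgeR). Pgd, of the pentose phosphate pathway, was at 94.5, 71.3 and 74.9 CPM in exercised and 49.6, 48.0 and 47.4 CPM in control larvae (log2 fold change 0.73, adjusted p = 0.00477). Men and Pgd passed with each library left out (adjusted p up to 0.0404 and 0.0260). Men-b, the mitochondrial malic enzyme, had a log2 fold change of 0.36 (adjusted p = 0.0214, and up to 0.103 without exercised replicate 3 or control replicate 2).

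**Figure D5:**
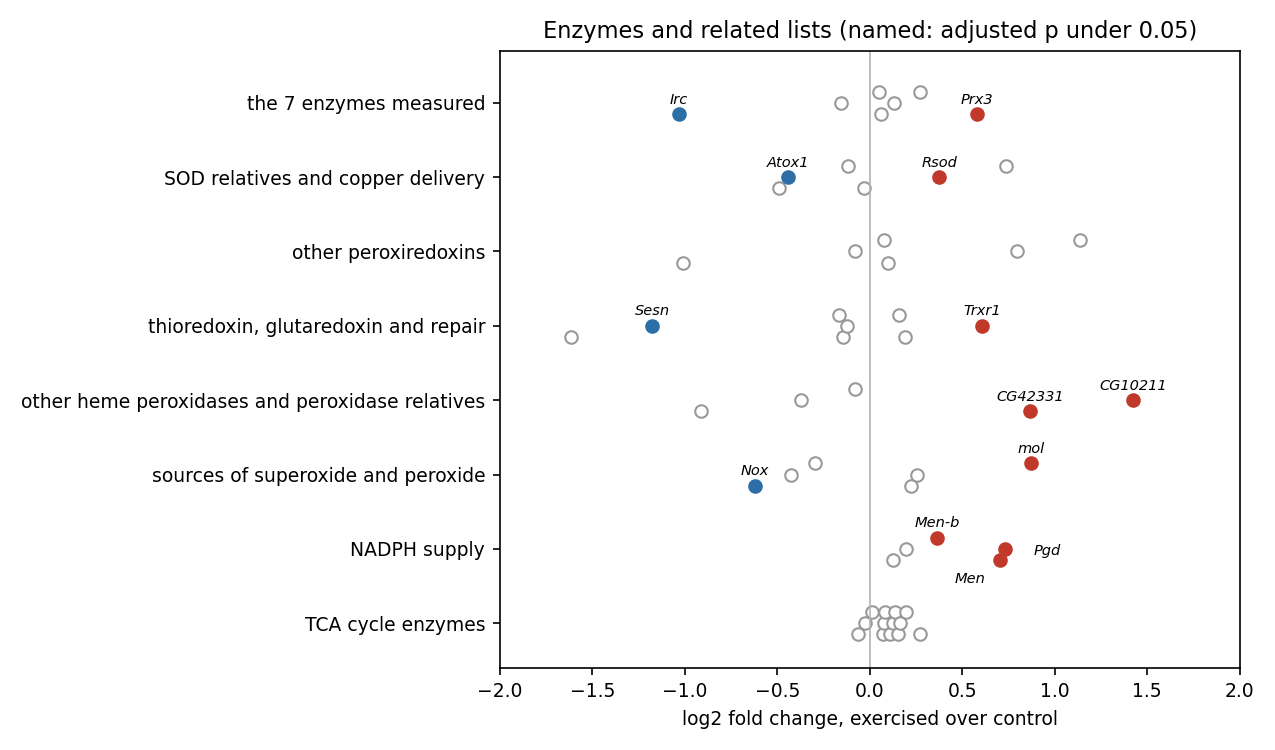
Log2 fold change, exercised over control (x axis), of every tested gene of the 7 measured enzymes and of 7 related lists (rows). Filled red points were higher and filled blue points lower at an adjusted p under 0.05 and are named, and open grey points did not pass. Calls lie on both sides of 0 in 4 of the rows, while the 3 called genes of NADPH supply are all higher and no enzyme of the TCA cycle is called. Of all tested genes 18.8% were called, and nothing is read from the counts by row.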

How the data were processed

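Messenger RNA of dissected L3 body wall muscle was sequenced in 3 exercised and 3 control libraries. The authors checked single-end reads with FastQC, mapped them to release 6 with STAR and deposited raw counts per gene from featureCounts, not normalized or pooled. The sources used here give no tool versions, no strand setting and no rule for reads shared between genes.

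Differential expression was computed from these counts with edgeR 4.0.16 (R 4.3.3). Genes kept by filterByExpr were scaled by TMM, fitted with glmQLFit (robust=TRUE) and tested with glmQLFTest, with condition as the only term and Benjamini-Hochberg adjustment over all 9127 tested genes. CPM is per TMM-scaled library, the standard error is the size of the log2 fold change over the square root of F, and intervals are at 95%. Symbols, positions and exon lengths came from Ensembl's annotation of the same assembly, which matched 17200 of 17477 identifiers. PHGPx was matched as a synonym.

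The enzymes and lists were chosen with earlier results of these data known, so counts over them are descriptions. All 8 enzymes are named. From each other list the genes that passed and the most expressed gene per exon length are named, and for each enzyme that passed the 3 genes of nearest profile. Some items this rule would name are not reported here. Alternatives were DESeq2 1.42.0, limma-voom (limma 3.58.1), RLE and upper-quartile factors, no filter or a stricter one (CPM of at least 1 in every library), robust=FALSE, a replicate block, leaving out the 20 most abundant genes, and each library left out in turn. The steps were tested on simulated counts. Pairwise chi-square tests found no duplicate libraries. No 3-against-3 exact permutation test can go below p = 0.1.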

Additional observations from a re-analysis of the deposited data

How the results depend on the processing

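Over the 15 alternatives, no call of the 7 enzymes reversed. The number of enzymes called was 2 except without control replicate 2, where it was 1 and Prx3 was lost, and without exercised replicate 1, where it was 3 and Sod3 was added. Over all tested genes 1714 were called, and 827 to 1781 with a library left out. Same-numbered exercised and control libraries did not deviate together (correlations of -0.22, 0.00 and -0.24 for numbers 1, 2 and 3). The largest correlation was 0.29, between exercised replicate 3 and control replicate 1. Deviations from a mean of 3 libraries constrain each other, so these values cannot settle whether the numbers pair the samples. With a replicate block 1064 genes were called, and Prx3 (adjusted p = 0.0387) and Irc (adjusted p = 0.0400) passed, while Rsod, Atox1, CG42331, mol and Men-b did not (adjusted p up to 0.0835). Prx6c, not called in the main fit, passed with the block. With upper-quartile factors 43.5% of calls were higher, against 54.6% with TMM (773 higher and 1003 lower, against 936 and 778), while the median fold change of all genes moved by less than 0.1 on the log2 scale. The fold change of Cat turned slightly negative (-0.05) in 1 setting, without exercised replicate 2, with no call in either. That of Sod1 did so with upper-quartile factors (-0.005), again without a call. With 3 libraries a group, the interval of Sod2 reached 0.00, and a difference of its size was not detectable here.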
